A study of Mus musculus with 8 samples.

Results

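Accessibility was examined at the genes of the transforming growth factor beta (TGF-beta) receptors and their Smad proteins in mouse leukemic and non-leukemic marrow progenitors. The genes were the ligand gene Tgfb1, the receptor genes Tgfbr1, Tgfbr2, Tgfbr3 and Eng, the effector genes Smad2 and Smad3, and the inhibitor genes Smad7, Ski and Skil. A region was taken for a gene when the gene's annotated extent was the nearest to the region's centre, within 100 kb. This gave 163 regions of 160978 in all, namely 3 for the ligand, 84 for the receptors, 44 for the effectors and 32 for the inhibitors. The data were ATAC-seq, in which a transposase tags open chromatin, from 8 libraries of bone marrow cells sorted as cKit+ Lymph- Ery-. The 4 leukemic libraries were acute myeloid leukemias, 2 of genotype URE-delta/+;Tet2+/- and 2 of URE-delta/+;Tet2-/-. The 4 non-leukemic libraries were 1 each of URE+/+;Tet2+/+, URE-delta/+;Tet2+/+, URE+/+;Tet2+/- and URE+/+;Tet2-/-. The URE is an upstream enhancer of Spi1, the gene of the myeloid factor PU.1, and Tet2 encodes a DNA demethylating enzyme. Every leukemic library carried both lesions and no non-leukemic library did, so leukemia and the joint genotype cannot be told apart. The labels call the controls age-matched and name no age. The analysed values come from the authors' deposited table, which gives 1 log2 fold change (leukemic over non-leukemic), 1 log2 average abundance and 1 adjusted p per region. The sources used here do not say which libraries entered each side, and since 1 normal library carried the URE deletion, the non-leukemic side of this low PU.1 comparison may rest on 1 library. Values of single libraries were not used here, so depth and the spread between mice are unknown and folds carry no interval.

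TGF-beta is a secreted dimer that brings together a type II receptor kinase, encoded by Tgfbr2, and a type I receptor kinase, encoded by Tgfbr1. Betaglycan, from Tgfbr3, and endoglin, from Eng, are co-receptors that bind ligand without kinase activity of their own. The active type I receptor phosphorylates Smad2 and Smad3, which enter the nucleus with Smad4 and act on transcription. Smad7 blocks the type I receptor, while Ski and SnoN, the product of Skil, hold Smad complexes in a repressed state. In blood formation TGF-beta is known for restraining the cycling of stem cells. ATAC-seq reports how open the DNA at these genes is and does not measure their RNA or protein.

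Promoter sequence from RefSeq (GRCm38.p6) was held for 6 of the 10 genes, Tgfb1, Tgfbr1, Tgfbr2, Eng, Smad3 and Ski. The 250 bases before the start site are printed for 4 of them, to set promoters rich in CG pairs beside that of Eng, which holds few. Sequences read 5′ to 3′ on the strand of the gene, and capitals mark CG pairs and, in Eng, the match to a PU.1 motif.
Tgfbr1 promoter, chr4:47352972-47353221, plus strand: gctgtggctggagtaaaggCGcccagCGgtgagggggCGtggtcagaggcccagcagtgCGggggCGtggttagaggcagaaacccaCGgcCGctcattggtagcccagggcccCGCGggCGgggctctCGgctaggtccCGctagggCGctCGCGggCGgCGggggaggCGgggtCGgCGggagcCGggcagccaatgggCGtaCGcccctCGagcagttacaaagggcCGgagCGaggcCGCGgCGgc
Tgfbr2 promoter, chr9:116175364-116175613, minus strand: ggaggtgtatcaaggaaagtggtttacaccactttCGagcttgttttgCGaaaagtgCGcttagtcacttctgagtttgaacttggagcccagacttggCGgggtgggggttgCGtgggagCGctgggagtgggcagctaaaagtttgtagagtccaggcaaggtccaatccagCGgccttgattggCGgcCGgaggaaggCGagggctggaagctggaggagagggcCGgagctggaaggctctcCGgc
Eng promoter, chr2:32646345-32646594, plus strand: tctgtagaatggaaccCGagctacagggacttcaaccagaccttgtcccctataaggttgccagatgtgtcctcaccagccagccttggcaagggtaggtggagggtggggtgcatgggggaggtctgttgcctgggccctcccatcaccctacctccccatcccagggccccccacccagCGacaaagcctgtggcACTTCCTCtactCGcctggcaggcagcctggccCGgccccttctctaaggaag
Smad3 promoter, chr9:63757995-63758244, minus strand: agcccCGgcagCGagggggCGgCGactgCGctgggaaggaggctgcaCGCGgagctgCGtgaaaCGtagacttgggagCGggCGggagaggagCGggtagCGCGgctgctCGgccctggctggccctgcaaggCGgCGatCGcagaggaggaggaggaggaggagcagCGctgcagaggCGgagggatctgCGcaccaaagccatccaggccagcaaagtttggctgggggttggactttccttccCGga

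The Tgfbr1 window held 29 CG pairs, that of Smad3 22, that of Tgfbr2 12 and that of Eng 4, where the median of 32851 promoter windows was 6. Short motifs, 6 in number, were searched on both strands in these windows, and matches are given as letters in sequence, not as bound sites. They were the Smad palindrome GTCTAGAC, the Smad half-site repeat CAGACA, the PU.1 core GAGGAAGT, the Runx core TGTGGTT, the GATA core AGATAA and the AP-1 site TGANTCA, which do not overlap at any site found. The Eng window held ACTTCCTC, the PU.1 core on the opposite strand, beginning 53 bases before the start site; 2.44% of all promoter windows held that motif. A second Tgfbr1 promoter entry, at chr4:47385966-47386215, held CAGACA, as did 17.1% of all windows. No match was found in the windows shown for Tgfbr1, Tgfbr2 and Smad3, nor in those of Tgfb1 and Ski. The palindrome occurred in 0.167% of all windows, the Runx core in 4.40%, the GATA core in 9.99% and the AP-1 site in 6.75%.

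The Tgfbr1 promoter, with the most CG pairs of the 4, lay under the most open region, at a log2 abundance of 5.46 in the authors' deposited table. Eng, with the fewest, had the least open of these regions, at 0.36 in the authors' deposited table. The order did not follow CG pairs throughout, since the Smad3 start-site region had 2.06 and that of Tgfbr2 4.25 in the authors' deposited table. The Tgfb1 window, not printed, held 21 CG pairs and lay under a region at 1.42 in the authors' deposited table. Of all 32851 windows, 51.1% lay under a tested region. The Ski window, with 53 CG pairs, lay under none and ended short of the region chr4:155222901-155223834.

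Changes called in leukemic cells were scattered over the TGF-beta genes and went in both directions. At the authors' threshold, an adjusted p under 0.001, 3 of the 163 regions rose, at Tgfb1, Tgfbr2 and Smad3, and 3 fell, at Eng, Smad3 and Ski. Over all regions 1.24% rose and 1.22% fell, 2.46% together, and the 6 called regions made 3.68% of the 163. Tgfbr1, Tgfbr3, Smad2, Smad7 and Skil had 0 called regions. At an adjusted p under 0.05, 13 regions were higher and 9 lower, 13.5% of the 163, against 7.98% higher and 9.21% lower, 17.2% together, over all regions. The share called, which rested on 6 regions at the strict threshold, was above the background there and below it at the lenient one. Neither difference was tested. The median log2 fold change was -0.03 over the 163 regions and 0.02 over all regions of the table, with quartiles of -0.62 and 0.51 against -0.71 and 0.60.

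**Figure D1:**
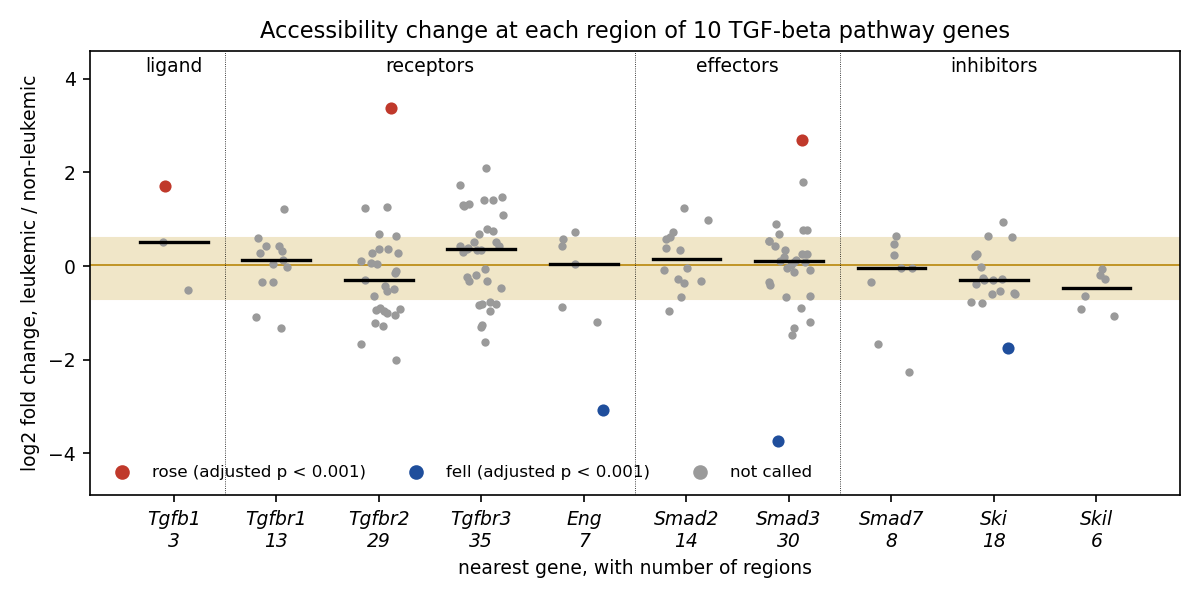
Each point is a region of the gene named on the x axis, with its log2 fold change (leukemic over non-leukemic) on the y axis; black bars are medians per gene, and the shaded band spans the quartiles of all 160978 regions with their median as a line. The 6 called regions, 3 that rose and 3 that fell, lie apart from the other regions of their own genes.

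Tgfb1, the ligand gene, had 3 regions. The region that rose, chr7:25705836-25706087, is 251 bp wide and lies 0.884 kb beyond the end of the gene away from its start site. It stood at 1.72 on the log2 fold scale, a 3.29-fold gain (adjusted p = 4.39e-04), in the authors' deposited table. The region over the start site, chr7:25686621-25689969, had a log2 fold change of 0.51 with an adjusted p of 0.848 in the authors' deposited table. The remaining region, 1.58 kb past the gained one and the most abundant of the 3, was given -0.52 (adjusted p = 0.498) by the authors' deposited table. Within 1.58 kb, then, a called gain and an uncalled lower value lay side by side. The other regions within 1 Mb of Tgfb1 had a median of 0.42, and chromosome 7 as a whole had 0.23.

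Tgfbr2, the type II receptor gene, carried the largest gain among the 163 regions. The region chr9:116104888-116105074, 186 bp wide and 70.4 kb downstream of the start site inside the gene, had a log2 fold change of 3.37, a 10.3-fold gain (adjusted p = 5.73e-06), in the authors' deposited table. Of all 160978 regions, 100 had a fold at least that high. Its neighbours 3.33 kb and 6.51 kb away were at 0.65 and 0.08 by the authors' deposited table. The gain was thus 1 short element, and neither region beside it was called.

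Around that element the 26 of 29 Tgfbr2 regions inside the gene leaned in opposite ways on the sides of its midpoint, a split looked at after the values were seen. On the start-site side 13 of 14 regions lay below 0, with a median of -0.92. On the far side 10 of 12 lay above 0, with a median of 0.28. The other 3 regions lie beyond the far end of the gene, at -0.64, 1.27 and -0.91 by the authors' deposited table, and with them 11 of 15 far-side regions lay above 0. None of the 14 start-side regions reached the authors' threshold. The lowest, chr9:116160001-116161236, 14.7 kb downstream of the start site, lay at -2.01 on the log2 fold scale, with an adjusted p of 0.00406 by the authors' deposited table. On the far side a region 52.0 kb downstream, chr9:116122858-116123914, had a log2 fold change of -1.66 with an adjusted p of 0.00933 in the authors' deposited table, and the start-side region 29.8 kb downstream had -1.29 (adjusted p = 0.0243). The region over the start site, the most open of the gene, was given -0.52 (adjusted p = 0.0637) by the authors' deposited table. Neighbouring regions of 1 gene are not independent, and the other regions within 1 Mb had a median of -0.19.

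Eng, which encodes the co-receptor endoglin of endothelium and of some stem cells, had 7 regions, of which 1 fell. This was chr2:32654723-32656171, 1448 bp wide and 8.85 kb downstream of the start site inside the gene. Its log2 fold change was -3.08, an 8.47-fold loss (adjusted p = 1.07e-04), in the authors' deposited table, and 741 of all regions had a fold at least that low. It was also the most abundant Eng region, at 1.37 on the log2 abundance scale in the authors' deposited table. The region over the start site, whose promoter is printed above, lay at 0.73 on the log2 fold scale, with an adjusted p of 0.326 by the authors' deposited table. The other 5 regions ranged from -1.19 to 0.57, so that 1 element inside the gene was called and its start site was not. Chromosome 2 had a median of -0.56, but the other regions within 1 Mb of Eng had a median of 0.41.

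Tgfbr3, the betaglycan gene, was the longest of the 10 genes at 183 kb and held the most regions, 35. None was called at 0.001; at 0.05, 6 were higher and 1 was lower. The lowest adjusted p of the 35 belonged to chr5:107200292-107202098, inside the gene, at 2.10 (adjusted p = 0.00394) by the authors' deposited table. The nearest region left out, chr5:107296221-107296413, lies 6.69 kb from Tgfbr3 and was assigned to Gm22557. That left-out region stood at 2.15 (adjusted p = 0.00102) by the authors' deposited table, just outside the threshold. Over the gene end with the more abundant region, chr5:107288157-107289757 stood at 1.32 (adjusted p = 0.0340), and its neighbour 1.57 kb away at 1.46 (adjusted p = 0.00980), by the authors' deposited table. The single lower region at 0.05 was chr5:107264835-107265485, at -1.63 (adjusted p = 0.0448) by the authors' deposited table. The median over the 35 regions was 0.37, against 0.08 for the other regions within 1 Mb. Most of these regions were faint, with a median log2 abundance of -1.76 against -1.17 over the whole table.

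Tgfbr1, the type I receptor gene, had 13 regions between -1.32 and 1.23, 8 of them above 0, and a median of 0.12. The lowest adjusted p was at chr4:47428188-47428574, 13.5 kb beyond the gene, at 1.23 (adjusted p = 0.0276) by the authors' deposited table. The region over its start site, chr4:47351439-47353925, fell outside the rule because its centre lies inside the neighbouring gene Gm32435. That region had a log2 fold change of -0.31 with an adjusted p of 0.658 in the authors' deposited table, with the abundance of 5.46 given above. The type I and type II receptor genes therefore had highly open start sites that were not called changed.

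**Figure D2:**
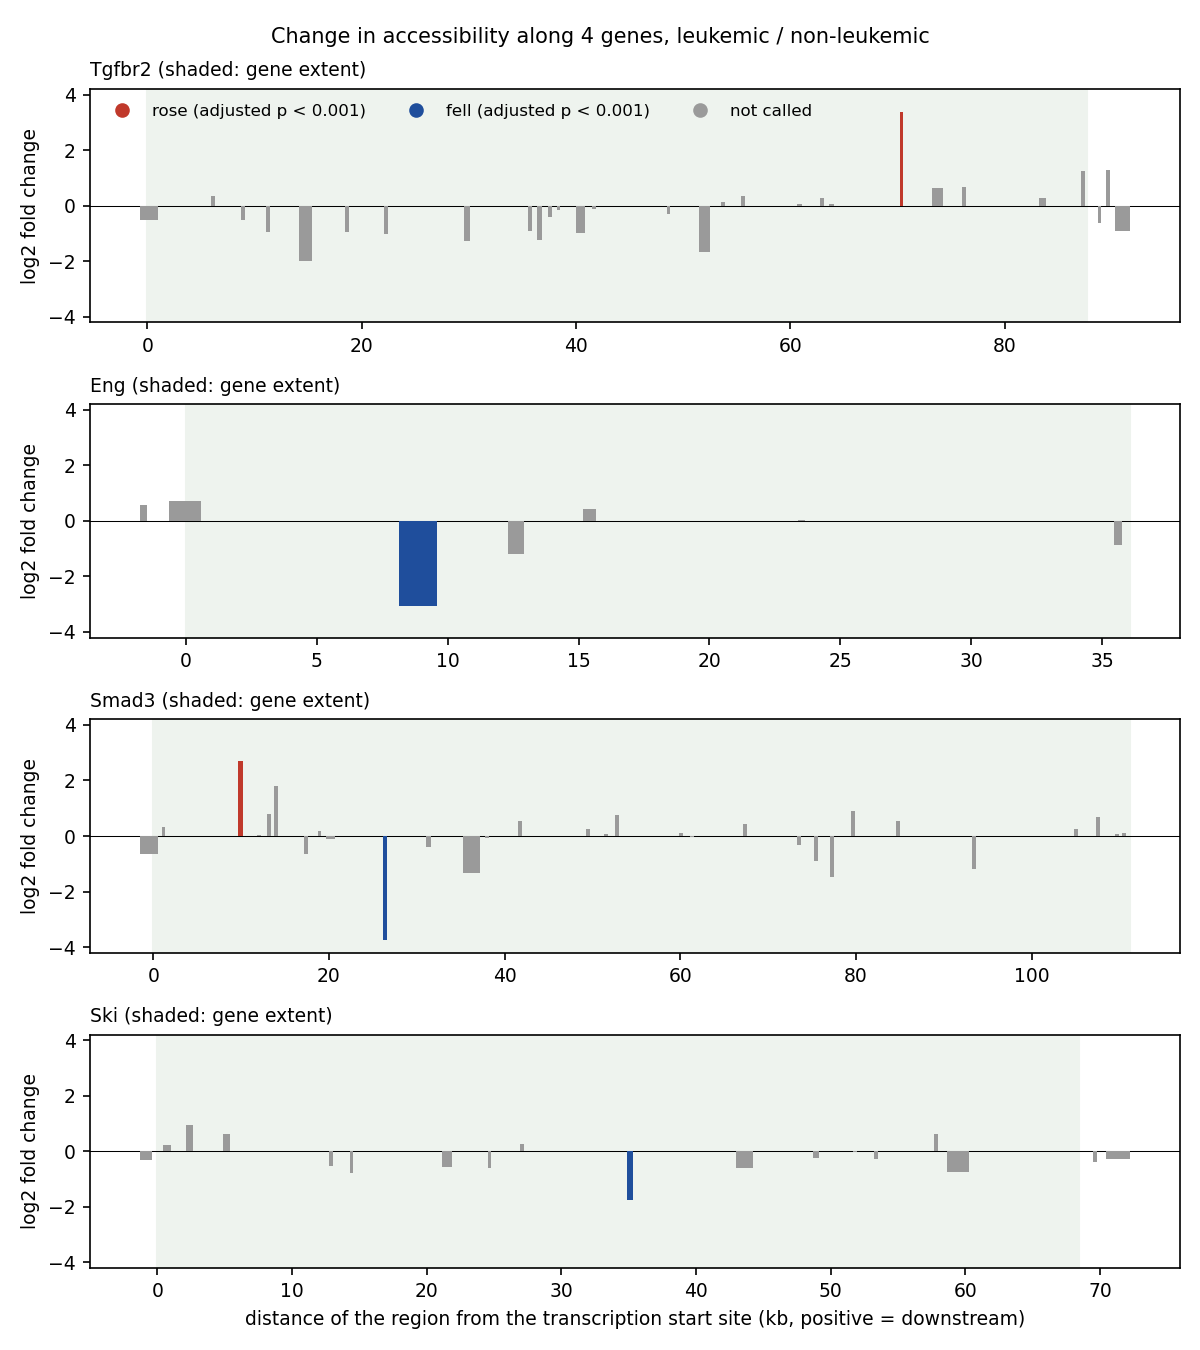
Bars give the log2 fold change (leukemic over non-leukemic, y axis) of each region of Tgfbr2, Eng, Smad3 and Ski against its distance in kb from the start site (x axis); bars are as wide as the regions, except that short regions are drawn at a minimum width to be visible. Called regions stand alone among grey neighbours, and most grey bars on the start-site side of Tgfbr2 point down.

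Smad3, the effector gene with 30 regions over 111 kb, had a gain and a loss, both on the start-site side of its midpoint. The loss, chr9:63731511-63731733, is 222 bp wide and lies 26.4 kb downstream of the start site. Its log2 fold change of -3.73, a 13.3-fold loss (adjusted p = 2.48e-05), in the authors' deposited table, was the lowest of the 163 regions, and 178 of all regions were at least that low. The predicted gene Gm51710 overlaps it, so it counts for both genes. The gain, chr9:63747748-63748391, lies 9.92 kb downstream of the start site and stood at 2.70, a 6.50-fold gain (adjusted p = 2.18e-04), in the authors' deposited table. Another region between them, chr9:63743913-63744070, stood just outside the threshold at 1.79 (adjusted p = 0.00131) by the authors' deposited table.

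The most open Smad3 regions were not called. The most abundant of them, chr9:63737361-63738341 at a log2 abundance of 3.07, lies 6.23 kb from the loss and was given -0.12 (adjusted p = 1) by the authors' deposited table. The next, chr9:63716087-63716437 at 3.03, lay at 0.54 on the log2 fold scale, with an adjusted p of 0.0944 by the authors' deposited table. Over the start site, chr9:63757480-63759519 had a log2 fold change of -0.65 with an adjusted p of 0.191 in the authors' deposited table. The median over all 30 regions was 0.10, with quartiles of -0.39 and 0.51, so opposite calls at single elements sat within a gene whose median was near 0.

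Smad2, the other receptor-activated Smad gene, had 14 regions and 0 called at either threshold. Its lowest adjusted p was 0.0843, at chr18:76378171-76380588, 67.6 kb beyond the gene and the farthest of the 163 regions from its gene, which stood at 1.23 in the authors' deposited table. The gene-end region chr18:76240632-76242485, with a log2 abundance of 5.39, was given -0.32 (adjusted p = 0.154) by the authors' deposited table. Of the 14 regions 7 lay above 0 and 7 below, and the median was 0.15. Of the effector genes, Smad3 thus had 2 called regions of 30 and Smad2 0 of 14, where 2.46% of all regions were called. The Smad2 regions were fainter, with a median log2 abundance of -1.54 against -0.40 at Smad3. With so few regions a call count of 0 says little, and the difference was not tested.

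Among the inhibitor genes, Ski had 1 region that fell. It was chr4:155187194-155187633, 439 bp wide and 35.1 kb downstream of the start site inside the gene, at -1.75, a 3.35-fold loss (adjusted p = 9.45e-04), in the authors' deposited table. The adjusted p lies just inside the threshold. The nearest Ski regions, 8.50 kb and 8.06 kb away, were at -0.61 and 0.25 by the authors' deposited table. A very open region 5.13 kb downstream of the start site, chr4:155217171-155217642, was higher at 0.05 with a value of 0.63 (adjusted p = 0.0247) in the authors' deposited table. The region just outside the start-site end, chr4:155222901-155223834, had a log2 abundance of 5.62 and lay at -0.31 on the log2 fold scale, with an adjusted p of 0.142 by the authors' deposited table. In all, 13 of the 18 Ski regions lay below 0.

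Smad7, the inhibitory Smad gene and itself a known target of the pathway, had 2 regions near the threshold. The region chr18:75377177-75378946, inside the gene, had a log2 fold change of -2.27 with an adjusted p of 0.00103 in the authors' deposited table, just outside the threshold. A second interior region, chr18:75387269-75387984, was given -1.66 (adjusted p = 0.00424) by the authors' deposited table. They were the most abundant of the 8 Smad7 regions, at 1.70 and 1.37. The other 6 ranged from -0.34 to 0.64. The region over 1 end of the gene, chr18:75366449-75367941, was assigned to Gm20544, whose extent holds its centre, and stood at -0.0014 (adjusted p = 1) with a log2 abundance of 4.91 in the authors' deposited table.

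Skil, which encodes SnoN, had 6 regions, all below 0 and none called at either threshold. They ranged from -1.07 to -0.05 with a median of -0.46, where the other regions within 1 Mb had a median of 0.03. Its gene-end region chr3:31093234-31095975, the most abundant of the 163 at 5.75, lay at -0.28 on the log2 fold scale, with an adjusted p of 0.379 by the authors' deposited table. The lowest adjusted p, 0.113, was at chr3:31133788-31134961, 11.5 kb beyond the gene, which stood at -0.91 in the authors' deposited table.

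By role, 24 of the 32 inhibitor regions lay below 0 with a median of -0.29, while the receptor and effector regions had medians of 0.06 and 0.10. The receptor median changed direction with the choice of regions, to -0.11 with protein-coding genes alone as candidates and to -0.22 at or above the table's median abundance, where the inhibitor median was -0.30 and the effector median 0.08. Of the inhibitor regions 1 fell and 0 rose at 0.001, a called share of 3.1% against 2.46% over all regions. At 0.05, 3 were lower and 1 higher, a share of 12.5% against 17.2% over all regions. Such a count describes regions that share a gene, and no test of the difference between roles was made. Inhibitor regions had a median log2 abundance of 0.49, above those of receptors at -1.37 and effectors at -0.88 and below that of the 3 ligand regions at 1.42. Among the 32196 most abundant regions of the table, which held 17 of the 32 inhibitor regions, the median log2 fold change was 0.01. The 40 regions of the 10 genes in that class, of every role, had a median of -0.32, with 15 above 0. Lower values at high abundance were therefore not confined to the inhibitor genes. The most open gene-end regions, of Smad2, Ski and Skil, stood between -0.32 and -0.28 on the log2 fold scale, where the 514 regions of abundance 5 or more in the table had a median of -0.18 and quartiles of -0.29 and -0.05.

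**Figure D3:**
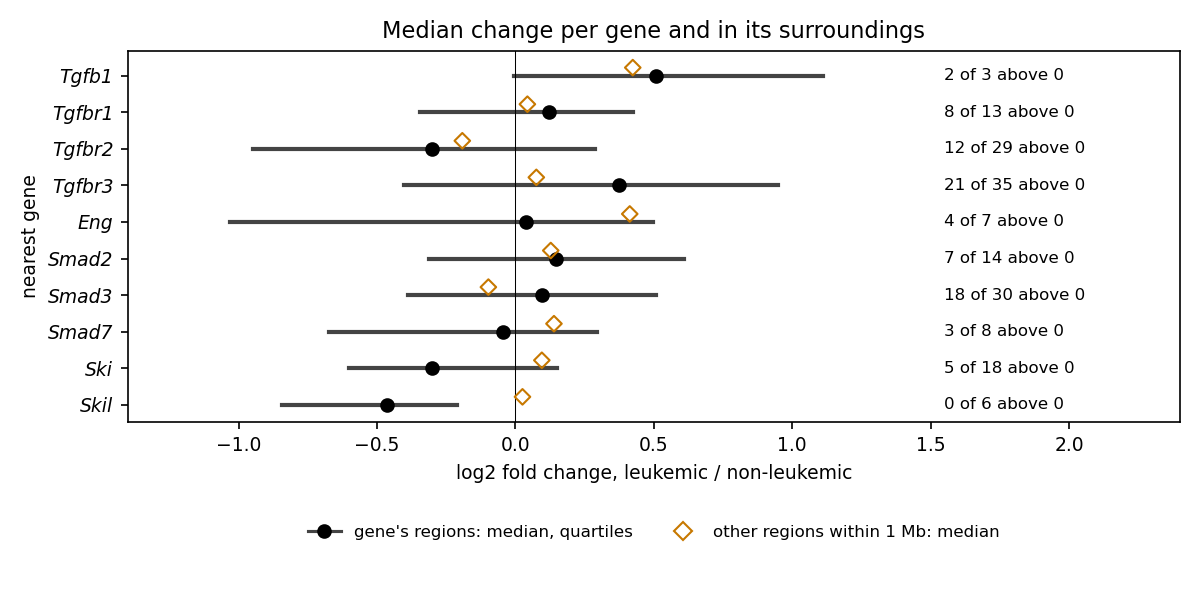
Black points and bars give the median and quartiles of the log2 fold change (leukemic over non-leukemic, x axis) of each gene's regions (y axis), and open diamonds the median of the other regions within 1 Mb. Skil and Ski lie below their surroundings, at -0.46 against 0.03 and -0.30 against 0.10, while Tgfbr3 lies above, at 0.37 against 0.08.

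Calls lay mainly inside the genes, as did the regions themselves. Of the 6 called regions 5 were in gene interiors and 1 within 1 kb of a gene end, and of all 163 regions 125 were in interiors, 14 at gene ends and 24 outside. Gene-end regions of these genes had a median of -0.09 against 0.19 for the 22401 gene-end regions in the table, but with gene ends of 3 kb the median over 27 regions was 0.11, against 0.19 for the 41900 such regions in the table. Exons and introns were not annotated in the gene table used here. The called regions had log2 abundances from -0.65 to 2.22, and 4 of the 6 were among the 32196 most abundant regions of the table. Of those 32196, 7.85% were called, against 0.00311% of as many at the faint end, and 40 of the 163 regions were among them.

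**Figure D4:**
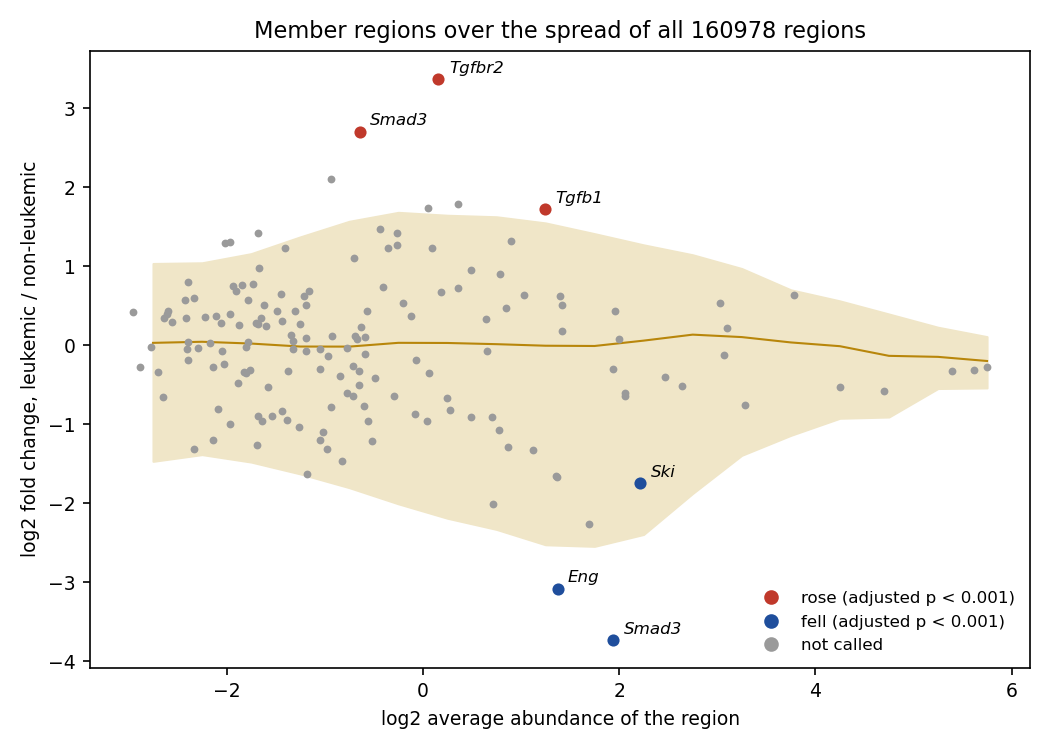
Points are the 163 regions by log2 average abundance (x axis) and log2 fold change, leukemic over non-leukemic (y axis); the band spans the 5th to 95th percentile of all 160978 regions in bins of abundance and the line is their median. All 6 called regions except that of Ski lie outside the band.

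The wider pathway also had calls in both directions, at about the background share of regions. A list of 65 other genes of TGF-beta and related bone morphogenetic protein signalling, all with tested regions, had 7 genes with a region that rose and 6 with one that fell, among 561 regions. That is 10.8% and 9.23% of the genes, against 5.21% and 4.96% of all 32184 genes with a region, but listed genes held a median of 6 regions where all genes held 3. By regions, 13 of the 561 were called, or 2.32%, near the 2.46% over all regions. The median log2 fold change over the listed regions was -0.01. For ligands and their release, 3 of 18 genes had a gain and 2 a loss. Ltbp1, a latent TGF-beta binding protein gene, had both, at 2.28 and -1.99 in the authors' deposited table. Ltbp3, of the same family, had a gain of 1.51, and Gdf15, a distant TGF-beta relative, one of 1.61, in the authors' deposited table. Bmp4, a bone morphogenetic protein gene, had a loss of -2.53 in the authors' deposited table.

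Of 10 further receptor genes, Acvrl1, which encodes the endothelial type I receptor ALK1 that works with endoglin, had a loss of -2.68 (adjusted p = 2.51e-04) in the authors' deposited table. Acvr1c, a type I receptor gene, had a gain of 2.50 (adjusted p = 1.32e-04) in the authors' deposited table. Effector and adaptor genes, Smad4 and Smad1 among them, had 0 called regions in 97 at 11 genes. Of 11 inhibitor genes, Smad6, which blocks bone morphogenetic protein signals, had a loss of -2.65 in the authors' deposited table. The ubiquitin ligase gene Nedd4l and Fkbp1a, whose product binds the type I receptor, had losses of -2.10 and -2.49 in the authors' deposited table. Smurf1, a ubiquitin ligase gene, and Ppm1a, a phosphatase gene, had gains of 1.87 and 2.92 in the authors' deposited table. The Smurf1 region lies inside its gene, and the Ppm1a region 33.4 kb outside. Of 15 known target genes, Tgfbi had a gain of 2.86 and 0 had a loss in the authors' deposited table. Each of these genes had 1 called region, apart from Ltbp1 with 2. Fkbp1a, with a loss, and Acvr1c, with a gain, lie on chromosome 2, whose median was -0.56.

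Markers of the sorted cells and of other cell types were read at their gene ends. The highest gene-end log2 abundance per gene had a median of 0.88 over 6 stem and progenitor genes, 3.26 at Kit, the gene of the receptor used for sorting. Of the 76 regions at all 7 stem and progenitor genes 1 rose, at Myb, and 7 fell, so that 10.5% were called against 2.46% over all regions. The losses were 3 at Cd34, 3 at Meis1 and 1 at Flt3, and the median log2 fold change was -2.34 over the regions of Cd34 and -1.31 over those of Meis1. Some stem cells carry endoglin, and the part of stem and progenitor cells in the Eng loss was not tested. The median of the highest gene-end log2 abundance was -0.34 over 6 lymphoid and -0.47 over 5 erythroid genes. These are the lineages named in the depletion. None of their 60 lymphoid and 25 erythroid regions was called, where the share over all regions was 2.46%. Over 4 endothelial genes this median abundance was -0.11, from -1.02 at Emcn to 1.61 at Kdr, while Cdh5 and Vwf had no gene-end region. Of the 83 regions at all 6 endothelial genes 2 fell, at Kdr and Vwf, and 0 rose, a called share of 2.41%, near that over all regions. Endothelial cells also use Eng and Acvrl1, each with a region that fell, and the part of endothelial cells in those losses was not tested. Mesenchymal markers had a median gene-end log2 abundance of -0.89 over 5 genes and 0 called regions among 50. Monocyte genes had 7 gains and 0 losses among 46 regions, a called share of 15.2%. The gains were 5 at F13a1, 1 at Ccr2 and 1 at Ly86. The median log2 fold change was 1.84 over the regions of F13a1. By contrast, that median was negative at Csf1r (-1.10), Ccr2 (-0.55), Ly86 (-0.51), Mpeg1 (-1.12) and Ms4a7 (-0.69). In bulk libraries, fewer cells of a type and less open DNA per cell cannot be told apart.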

How the data were processed

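ATAC-seq of sorted mouse marrow progenitors was analysed from tables of 1 comparison. Per the submitters' processing notes, GRCm38 (mm10), Bowtie2 2.4.1, SAMtools 1.10.2 and Genrich 0.6 were used; the file titles name csaw. Its settings, the normalization, any shift for the transposase and how windows were merged into 1 fold and 1 p per region are not stated in the labels or files. The authors deposited a log2 fold change and a log2 average abundance per region, the latter read from the column's position and range. The deposited p-values, adjusted by Benjamini-Hochberg over all 160978 regions, gave the authors' second p column to within 2.39e-15. The deposited changed sets were checked to equal an adjusted p under 0.001, the unchanged set over 0.9. By the lanes in the labels, lane 8 holds the 2 libraries with Tet2 lesions alone and no leukemic library.

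Regions were assigned to genes by extent in a RefSeq table of GRCm38.p6 (49997 genes, all 10 genes matched), which gave 158996 regions a gene. Equal distances were kept, so 6 of the 163 regions count for 2 genes. The assignment was tested on simulated data. No test of a gene list was made. Coordinates are as deposited, with the base of the count (0 or 1) unknown. No region beyond 100 kb had one of the 10 genes nearest. The genes and lists were chosen with earlier results of these data known. All 10 genes are named, with each region called at 0.001, the most abundant gene-end region and the region of lowest adjusted p; of the pathway list, each gene with a called region. Alternatives were other thresholds, distances, gene sets and abundance limits. Python 3.11.15, pandas 2.3.3 and numpy 2.4.6 were used.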

Additional observations from a re-analysis of the deposited data

How the results depend on the processing

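Depth per library is unknown, and no replicate could be left out. No paired analysis was possible because the tables hold 1 value per region and comparison. Of 46 alternative values, 32 stayed within 1.5 times the count or 0.1 of the median. At an adjusted p under 0.0001, 1 region of the 10 genes rose (Tgfbr2) and 1 fell (Smad3), and 2 genes of the wider pathway had a gain and 0 a loss by the authors' csaw values. At an adjusted p under 0.05 there were 13 higher and 9 lower regions, and 25 and 27 pathway genes. With protein-coding genes alone as candidates, the 10 genes took 233 regions, of which 4 rose and 4 fell; the added calls were a gain 13.7 kb from Smad7 (2.61, adjusted p = 6.92e-05) and a loss 11.1 kb from Skil (-2.26, adjusted p = 3.83e-04) in the authors' deposited table. Pathway genes with a gain or a loss then numbered 11 and 13, and the receptor median turned to -0.11. With regions at or above the median abundance, the median was -0.23 over 90 regions of the 10 genes and -0.22 over receptors, against 0.00103 over all such regions. The gene-end median turned to 0.11 with ends of 3 kb. Leaving out regions inside 2 genes, an alternative chosen after seeing the data, left 2 losses, without that of Smad3.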
